A study of Drosophila melanogaster with 18 samples.

Results

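The Bomanins and the Daisho peptides are short secreted immune peptides of Drosophila melanogaster, and their transcripts were followed here in the brain across sex and age. The 10 genes were BomS1, BomS2, BomS3, BomS5, BomT1, BomT2, BomT3, BomBc1, Dso1 and Dso2, taken by name from the Bomanin and Daisho families, with earlier results of these data known, and each had a row among the 13439 genes of the table. All 10 passed the filter on low values, a mean of at least 5 normalized reads, which 12448 genes passed. Brains came from virgin Oregon wild-type flies, females or males, aged 3, 7 or 14 days after eclosion, with no infection or other treatment named. Each library was made from 100 pooled brains. There were 3 libraries for each age of the males and for the 3-day females and 2 libraries each for the 7-day and 14-day females, 16 in all, and 2 more were removed as outliers by the study before the table was made. The comparisons ask how the level of each gene differed between the sexes at an age and between ages within a sex.

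In flies, the Toll pathway responds to fungi and Gram-positive bacteria. Proteases of the hemolymph cut the ligand Spätzle, the receptor Toll is engaged, and the NF-kappaB factors Dif and Dorsal turn on effector genes in the fat body, from which the peptides are secreted. Bomanins are effectors needed to survive many of these infections. Short forms (BomS) consist of little more than the conserved Bomanin motif after secretion, tailed forms (BomT) carry the motif and an added tail, and bicipital forms (BomBc) carry a pair of motifs joined by a linker. The Daisho peptides Dso1 and Dso2 are further Toll-induced peptides, known for defense against filamentous fungi.

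The genes lay in 3 places. On chromosome arm 2R (release 6 of the genome), 10 Bomanin genes filled 9237 bases from 18381393 to 18390629, and 7 of them were members: BomT1, BomBc1, BomS1, BomS2, BomS3, BomT2 and BomS5 in the order of the map. The other genes in the cluster were BomS4, BomBc2 and BomS6. BomT3 lay on 3R from 22085374 to 22086397, beside BomBc3, and the pair filled 3128 bases. Dso1 and Dso2 were neighbors on opposite strands of 2R, from 20868496 to 20870678. No member overlapped another annotated gene, whereas BomS4 and BomBc2 overlapped by 88 bases on opposite strands, and the library kit did not keep the strand. Annotated exons summed to 218 (BomS5) to 769 bases (BomS3) per member. The Bomanins are related genes, and how reads that match several of them were counted is not given in the sources used here, so values of single Bomanins carry that uncertainty.

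Values are DESeq2-normalized reads, reads per gene divided by 1 factor per library. The recovered reads per library came to 2924715 to 8664494 over all genes. A member other than BomT1 had 8 to 515 reads in a library, and BomT1 had 0 to 18. Differences are on the scale of log2(value + 1), from 1 limma model of all 6 groups, and a gene is called at a Benjamini-Hochberg adjusted p under 0.1 over the 12448 genes, a threshold of the study, which also used an unadjusted p under 0.05. The study calls the pools biological replicates. Whether they came from separate rearings is not given in the labels, and the p-values measure the spread between these samples. In bulk RNA, fewer cells of a type and less RNA per cell cannot be told apart.

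The libraries carried transcripts typical of other tissues besides brain, and the groups differed in them. The 8 neuron markers were all detected, with summed levels of 66238 to 102406 normalized reads in the 3-day females, 53784 to 58103 in the 3-day males and 13786 to 80979 in the other groups. The 13 fat body markers, among them the yolk protein genes Yp1, Yp2 and Yp3, summed to 19764 to 160685 in the 7 female libraries and 2579 to 4947 in the 9 male libraries, and only fit, Fbp1 and Fbp2 were at 0 in any library. Single markers did not all differ this way. Between females and males, 9 of the 13 lay above 0 at 3 days and at 14 days. Their log2 differences ran from −1.84 to 8.92 and from −1.96 to 10.11. The sum is therefore not a measure of the amount of fat body. The 7 digestive enzyme markers, trypsins, amylases and others, summed to 7369 to 21976 in the 3-day females, 180 to 325 in the 3-day males and 124 to 2576 elsewhere, with none at 0. The 8 hemocyte markers summed to 1014 to 1470 in the 3-day females and 1616 to 2299 in the 3-day males, and only He was at 0 in any library. Genes with no read made up 9.87% to 17.0% of the table in the 3-day females against 3.67% to 4.06% in the 3-day males. Replicate 1 of the 14-day males stood apart from its group, with Spearman correlations of 0.884 and 0.845 to its replicates against 0.935 to 0.967 within the other groups. In that library 94 genes had no read, and in the second 7-day female library 155, each the fewest of its group.

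Summed over the 10 genes, the 3-day females had the highest group mean. The sum was 2418, 3873 and 1251 normalized reads in the 3 libraries of the 3-day females and 351, 573 and 508 in those of the 3-day males, so the lowest female library was above the highest male one. At 7 days it was 1750 and 740 in females and 792, 474 and 671 in males, and the groups overlapped. At 14 days it was 1652 and 1550 in females and 1462, 938 and 763 in males. Both 14-day female libraries were above replicate 3 of the 3-day females. As CPM, recovered reads scaled to the library total, the sums were 350, 524 and 202 in the 3-day females, 304 and 375 in the 14-day females and 413 in replicate 1 of the 14-day males, so these groups overlapped. Replicate 2 of the 3-day females held the highest value of 7 of the 10 genes, replicate 1 of that group held those of BomS3 and Dso1, and replicate 1 of the 14-day males held that of BomT1.

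**Figure D1:**
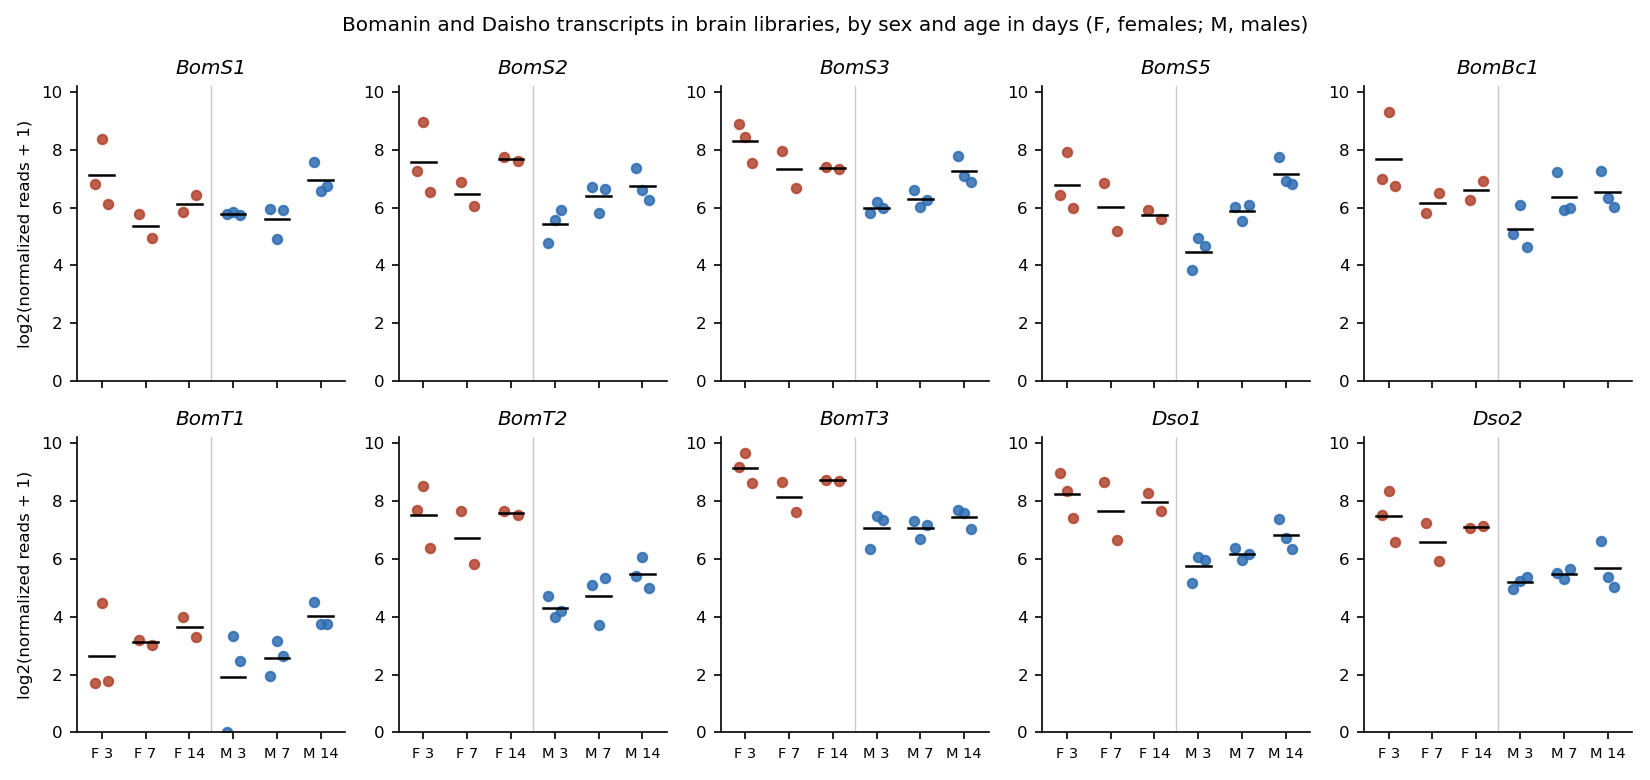
Level of each gene in each of the 16 libraries as log2(normalized reads + 1) on the vertical axis, by sex and age in days (red, females; blue, males). Points are libraries and black bars are group means on the log2 scale. The 3-day females lie above the 3-day males with no overlap for every gene but BomT1.

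At 3 days, 8 of the 10 genes were called between the sexes, and all 8 were higher in females: BomS2, BomS3, BomS5, BomBc1, BomT2, BomT3, Dso1 and Dso2. Of all genes tested, 3.04% were called higher in 3-day females (379 genes, beside 1038 called lower). Under quantile normalization these numbers were 200 and 113, so the split over all genes depended on the scaling, while the same 8 of the 10 genes were called. The median log2 difference of the 10 genes was 2.30, against a median of −0.12 over all genes tested. The values of the 3-day females and 3-day males did not overlap for 9 of the 10 genes, the exception being BomT1, and 10.7% of all genes tested were higher in females without overlap. The called differences ran from 4.26-fold for BomT3 to 9.41-fold for BomT2. Without replicate 2 of the 3-day females the log2 difference of BomBc1 went from 2.40 to 1.59 and that of BomS2 from 2.16 to 1.48.

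Among the tailed forms, BomT3 was the most abundant of the 10 genes by normalized reads in 14 of the 16 libraries. It had 577.5, 799.8 and 388.2 normalized reads in the 3-day females and 79.9, 175.8 and 162.2 in the 3-day males. The lowest female value was more than double the highest male value, and the log2 difference was 2.09 (SE 0.34, adjusted p = 0.00498). BomT2, which lies in the 2R cluster, had 206.3, 361.3 and 81.9 in the females and 25.0, 14.8 and 17.2 in the males. This was the widest gap of the 10 genes, a log2 difference of 3.23 (SE 0.58, adjusted p = 0.00601). BomT1, at the left end of the cluster, was near the limit of detection, with 2, 12 and 3 reads in the 3-day females and 0, 11 and 7 in the 3-day males. Its groups overlapped and its log2 difference of 0.72 had an interval from −1.22 to 2.66, too wide to tell a difference from none.

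The short forms did not differ equally. BomS3 had 475.5, 347.3 and 185.6 normalized reads in the 3-day females and 54.9, 71.5 and 62.6 in the 3-day males, a log2 difference of 2.30 (SE 0.38, adjusted p = 0.00498). The males lay close together and far below each female library. BomS2 had 151.4, 492.8 and 92.4 in the females and 26.6, 46.0 and 59.4 in the males (log2 difference 2.16, SE 0.51, adjusted p = 0.0219). BomS5 had 85.2, 238.5 and 62.4 against 13.3, 29.6 and 24.3 (2.30, SE 0.52, adjusted p = 0.0188). For both genes replicate 2 of the females was far above its replicates, and replicate 1 of the males was the lowest library. BomS1 had 112.1, 331.5 and 68.9 in the females and 53.2, 55.9 and 52.4 in the males, and although the groups did not overlap its log2 difference of 1.33 (SE 0.50) was not called (adjusted p = 0.118). It was called by edgeR and by DESeq2, and its adjusted p over the alternatives ran from 0.0229 to 0.476.

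The bicipital form and the Daisho genes were on the same side. BomBc1 had 125.6, 633.2 and 105.4 normalized reads in the 3-day females and 33.3, 67.4 and 23.6 in the 3-day males (log2 difference 2.40, SE 0.59, adjusted p = 0.0261), with replicate 2 of the females far above all other libraries. Dso1 had 501.3, 321.0 and 168.6 in the females and 34.9, 66.5 and 61.3 in the males (2.50, SE 0.47, adjusted p = 0.00727). Dso2 had 180.6, 326.2 and 95.6 against 30.0, 37.0 and 40.2 (2.30, SE 0.49, adjusted p = 0.0141). The highest female library differed between these neighbors, replicate 1 for Dso1 and replicate 2 for Dso2.

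The count called at 3 days held from 5 to 9 when single libraries were left out. It was lowest without replicate 1 of the 3-day males, where BomS2, BomS5 and BomBc1 lost their calls, and BomBc1 also lost its call without replicate 2 of the 3-day females. BomS3, BomT2, BomT3, Dso1 and Dso2 were called under each of the 26 alternatives to the test reported here.

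**Figure D2:**
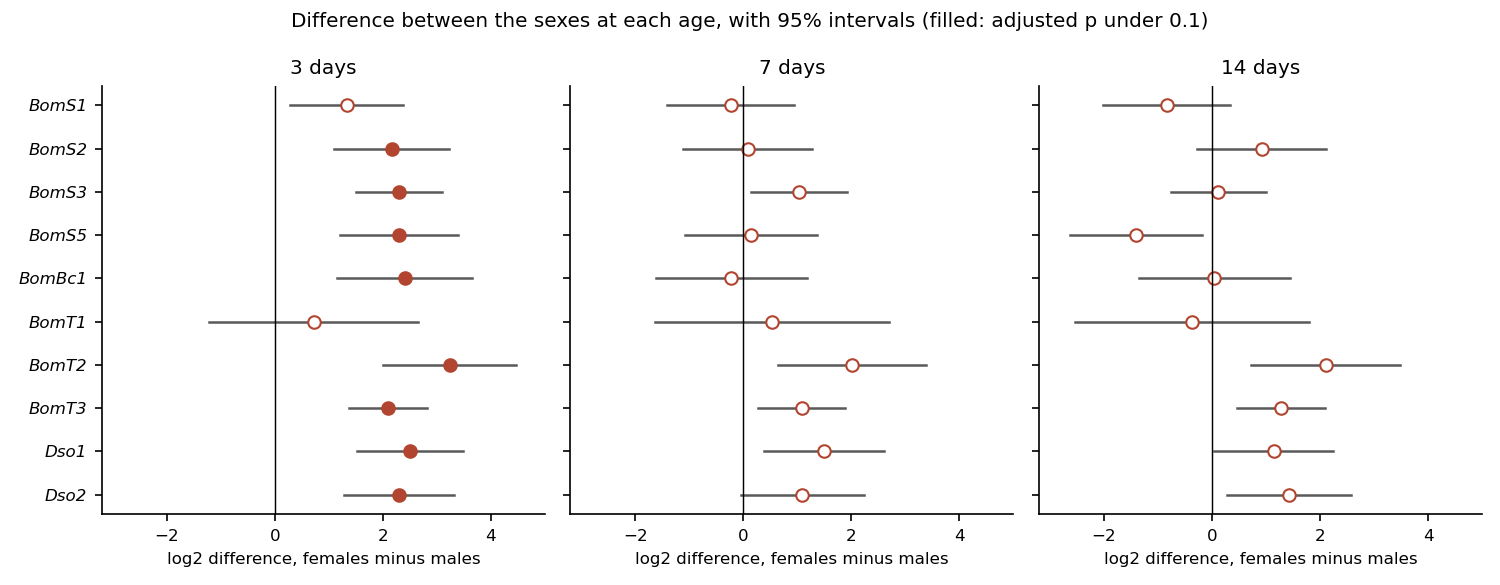
Log2 difference between females and males for each gene (horizontal axis, females minus males on the scale of log2(normalized reads + 1)) at 3, 7 and 14 days. Points are limma estimates, filled where called at an adjusted p under 0.1, and lines are 95% intervals. The 8 calls are all at 3 days, and at 14 days BomS5 lies below 0 (−1.40) and BomT2 above it (2.11).

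At 7 days none of the 10 genes was called between the sexes by limma, edgeR or DESeq2, and 0.0482% of all genes tested were called higher in females. With no adjustment 4 had a p under 0.05, all with higher values in females, BomS3, BomT2, BomT3 and Dso1, beside 4.43% of all genes tested. The values of 5 genes lay higher in females without overlap (the same 4 and Dso2), beside 12.7% of all genes tested. BomT2 had 201.1 and 55.0 normalized reads in the 7-day females and 33.0, 12.2 and 39.6 in the males (log2 difference 2.01, SE 0.65, adjusted p = 0.537). Dso1 had 404.1 and 100.5 against 82.1, 61.8 and 70.3 (1.50, SE 0.52, adjusted p = 0.585). In both, replicate 2 of the females was close to the males and replicate 1 was not. Leaving out replicate 2 of the 7-day females leaves a single library in that group, so the calls of such fits are not given.

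At 14 days none was called by limma, edgeR or DESeq2 either, while 0.273% of all genes tested were called higher in females. With quantile normalization BomT2 was called. The genes lay on both sides of 0, and at an unadjusted p under 0.05 the values of BomT2, BomT3, Dso1 and Dso2 were higher in females, beside 4.43% of all genes tested, and BomS5 was lower, beside 2.69%. BomT3 had 423.4 and 415.7 normalized reads in the 14-day females and 203.5, 190.2 and 131.0 in the males (log2 difference 1.28, SE 0.38, adjusted p = 0.449). BomT2 had 201.3 and 182.3 against 41.2, 66.3 and 30.5 (2.11, SE 0.65, adjusted p = 0.50). Both female libraries were close to each other for these genes and lay above all of the males. BomS5 ran the other way, with 58.7 and 47.4 in the females and 212.0, 118.9 and 110.9 in the males (−1.40, SE 0.58, adjusted p = 0.693). Without overlap, 5 genes were higher in females, BomS2 and the 4 above, beside 9.52% of all genes tested, and 2 were lower, BomS1 and BomS5, beside 16.9%.

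Neighbors in the 2R cluster were not compared by a test. BomT2 and BomS5 follow each other on the same strand, and their log2 differences were 2.11 and −1.40 at 14 days, where at 3 days they had been 3.23 and 2.30. BomBc1 and BomS1, also neighbors, stood at 0.05 (SE 0.66) and −0.84 (SE 0.56) at 14 days, and none of these 4 was called there. Among the cluster genes that are not members, BomBc2 was higher in 14-day females (608.6 and 644.2 against 198.6, 100.1 and 67.9 normalized reads, log2 difference 2.49, SE 0.48, adjusted p = 0.031). That call was lost without replicate 2 or without replicate 3 of the 14-day males. Fits without a 14-day female library leave 1 in that group, so their calls are not given. At 3 days 3 of the 4 other Bomanins were called higher in females, BomBc2 (2.43), BomS6 (1.86) and BomBc3 (1.53, beside BomT3 on 3R), and BomS4 was not called (1.12, adjusted p = 0.269). Without replicate 2 of the 3-day females BomS6 and BomBc3 lost their calls, and BomS6 also lost its own without replicate 3 of the 3-day males and with quantile normalization.

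**Figure D3:**
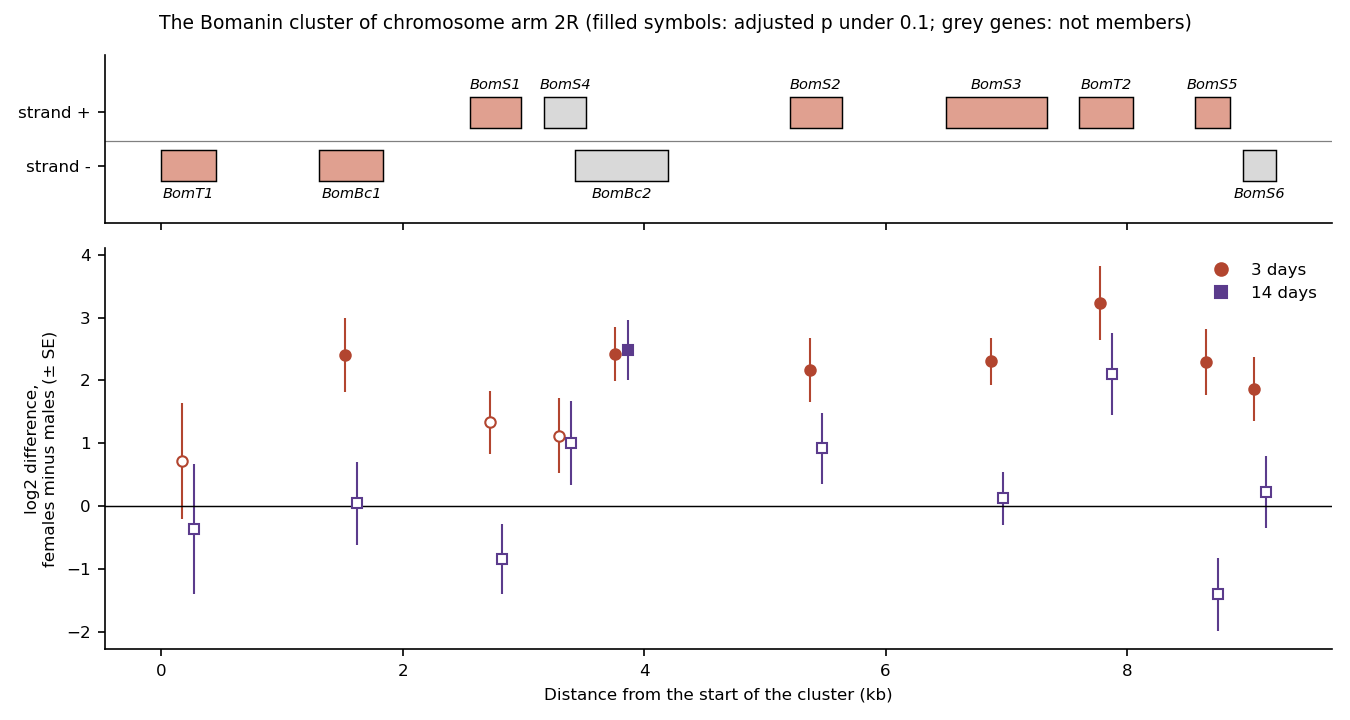
The Bomanin cluster of chromosome arm 2R. The upper panel shows the 10 genes as boxes to scale by strand, with members in red and other genes in grey, against the distance in kb from the start of the cluster, and the lower panel gives the log2 difference, females minus males, of each gene at 3 days (circles) and 14 days (squares) with its SE, filled where called. At 3 days all 10 lie above 0, from 0.72 for BomT1 to 3.23 for BomT2, and at 14 days they spread from −1.40 for BomS5 to 2.49 for BomBc2.

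With age in females, BomS1 was the 1 gene called. It fell from 112.1, 331.5 and 68.9 normalized reads at 3 days to 54.1 and 29.5 at 7 days, with no overlap, a log2 difference of −1.75 (SE 0.56, adjusted p = 0.0874), while 0.739% of all genes tested were called lower. That call was lost without the first or without the second 3-day female library. It was also lost with a pseudocount of 5, quantile normalization, the replicate block and the fit of these groups alone. Fits without a 7-day female library leave 1 in that group, so their calls are not given. Conversely, 3 genes were called without replicate 3 of the 3-day females, and the share of all genes called in that fit is not given here. At an unadjusted p under 0.05 there were 4 genes with lower values at 7 days, BomS1, BomS3, BomT3 and BomBc1, beside 3.55% of all genes tested, and the values of 2 were lower without overlap, BomS1 and BomBc1, beside 10.6%. The median log2 difference of the 10 genes from 3 to 7 days was −0.94, against 0.12 over all genes tested. From 7 to 14 days none was called by limma, edgeR or DESeq2 and none had an unadjusted p under 0.05, and 0% of all genes tested were called higher. The values of BomS1, BomS2, BomT1 and BomT3 were higher at 14 days without overlap, beside 13.1% of all genes tested. From 3 to 14 days none was called by limma or edgeR, with 4.61% of all genes tested called lower in limma. DESeq2 called 1 (BomS3), and it also called more of all genes lower than limma did. In limma BomS3 was the 1 gene at an unadjusted p under 0.05 (log2 difference −0.92, SE 0.42, adjusted p = 0.15), beside 8.3% of all genes tested.

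In males the group mean of each of the 10 genes was highest at 14 days, by little for BomBc1 (99.1 normalized reads against 90.2 at 7 days). The share of all genes with this order is not given here. Over all genes tested the median log2 difference was 0.20 from 7 to 14 days and 0.24 from 3 to 14 days, and below 0 with quantile normalization. Replicate 1 of the 14-day males, which stood apart, had a sum of 1462 over the 10 genes, against 938 and 763 in its replicates. From 3 to 7 days none was called by limma, edgeR or DESeq2, with 0.0402% of all genes tested called higher, and 1 (BomS5) had an unadjusted p under 0.05, beside 1.44% of all genes tested. From 7 to 14 days, BomS1 (log2 difference 1.38, SE 0.50, adjusted p = 0.0859) and BomS3 (0.96, SE 0.38, adjusted p = 0.0979) rose. That is 2 of 10 genes, near the background, as 14.7% of all genes tested were called higher. The values of 4 genes, BomS1, BomS3, BomS5 and BomT1, were higher at 14 days without overlap, beside 21.3% of all genes tested. BomS1 had 60.4, 29.5 and 59.1 normalized reads at 7 days and 187.7, 95.1 and 107.5 at 14 days.

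From 3 to 14 days in males, BomS5 and BomS3 rose, where 6.09% of all genes tested were called higher. BomS5 went from 13.3, 29.6 and 24.3 normalized reads at 3 days through 64.2, 45.3 and 66.5 at 7 days to 212.0, 118.9 and 110.9 at 14 days. No library of 1 age overlapped with the next, and the log2 difference over the whole span was 2.67 (SE 0.52, adjusted p = 0.0492), a 6.37-fold rise. BomS3 had 54.9, 71.5 and 62.6 at 3 days and 219.2, 133.9 and 117.8 at 14 days (1.26, SE 0.38, adjusted p = 0.0859). At an unadjusted p under 0.05 there were 7 genes with higher values at 14 days, all but BomT2, BomT3 and Dso2, beside 18.4% of all genes tested, and 7, all but BomT3, BomBc1 and Dso2, did not overlap, beside 20.3%. BomT3 was not called, with 139.3 ± 51.9 (SD, n = 3) at 3 days and 174.9 ± 38.6 (n = 3) at 14 days, a log2 difference of 0.38 with an interval from −0.34 to 1.105.

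These male calls rested on few libraries. From 3 to 14 days none of the 10 genes was called without replicate 1 or 2 of the 14-day males, or without replicate 2 of the 3-day males. Without replicate 3 of the 14-day males 5 were called, and the share of all genes called in that fit is not given here. From 7 to 14 days none was called without any 1 of 8 libraries, replicate 1 of the 14-day males among them. None was called in edgeR either, which called no gene at all in this comparison. The log2 difference of BomS5 from 3 to 14 days stayed at 2.35 or above when any 1 library was left out. In the same span, the summed level of the hemocyte markers was 1616 to 2299 at 3 days and 1493 to 2265 at 14 days, with 4 of 7 tested called higher and 1 lower, and that of the fat body markers was 2579 to 3272 and 2760 to 4947, with 3 of 13 called higher. The part of either in the male rise was not tested.

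Whether the sexes differed in their change with age was tested as a difference of changes. None of the 10 genes was called for 3 to 7, 7 to 14 or 3 to 14 days by limma or edgeR. In limma, 0.0723%, 0% and 0% of all genes tested were called with the change lower in females. DESeq2 called 2, 0 and 2 of the 10 genes. The share of all genes that DESeq2 called is not given here, so its counts have no background beside them. Unadjusted p values under 0.05 were found for 4 genes for 3 to 7 days (BomS2, BomS3, BomS5 and BomBc1), beside 2.27% of all genes tested, 0 for 7 to 14 days, and 4 for 3 to 14 days (BomS1, BomS3, BomS5 and BomBc1), beside 2.52%. The lowest value was that of BomS5 from 3 to 14 days, −3.70 (SE 0.78, unadjusted p = 0.000172, adjusted p = 0.39). In DESeq2 its adjusted p was 0.00277. None of the other alternatives that left at least 2 libraries in each group compared passed the threshold.

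The make-up of the summed reads shifted between the groups. BomT3 took the largest share in 14 of 16 libraries, 17.2% to 32.0% of the reads of the 10 genes there, and Dso1 and BomS3 took it in 1 each. The share of BomS5 was 3.79% to 5.16% in the 3-day males, 8.1% to 9.92% in the 7-day males and 12.7% to 14.6% in the 14-day males. In all 7 female libraries it was 3.06% to 6.50%, a range that holds the 3-day males. BomS1 took 6.21% to 15.2% in males and 3.09% to 8.56% in females. BomT2 took 6.54% to 12.2% in females and 2.58% to 7.11% in males. Dso2 took 7.47% to 9.02% in females. The shares are of a sum, so that a rise in 1 gene lowers the others.

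**Figure D4:**
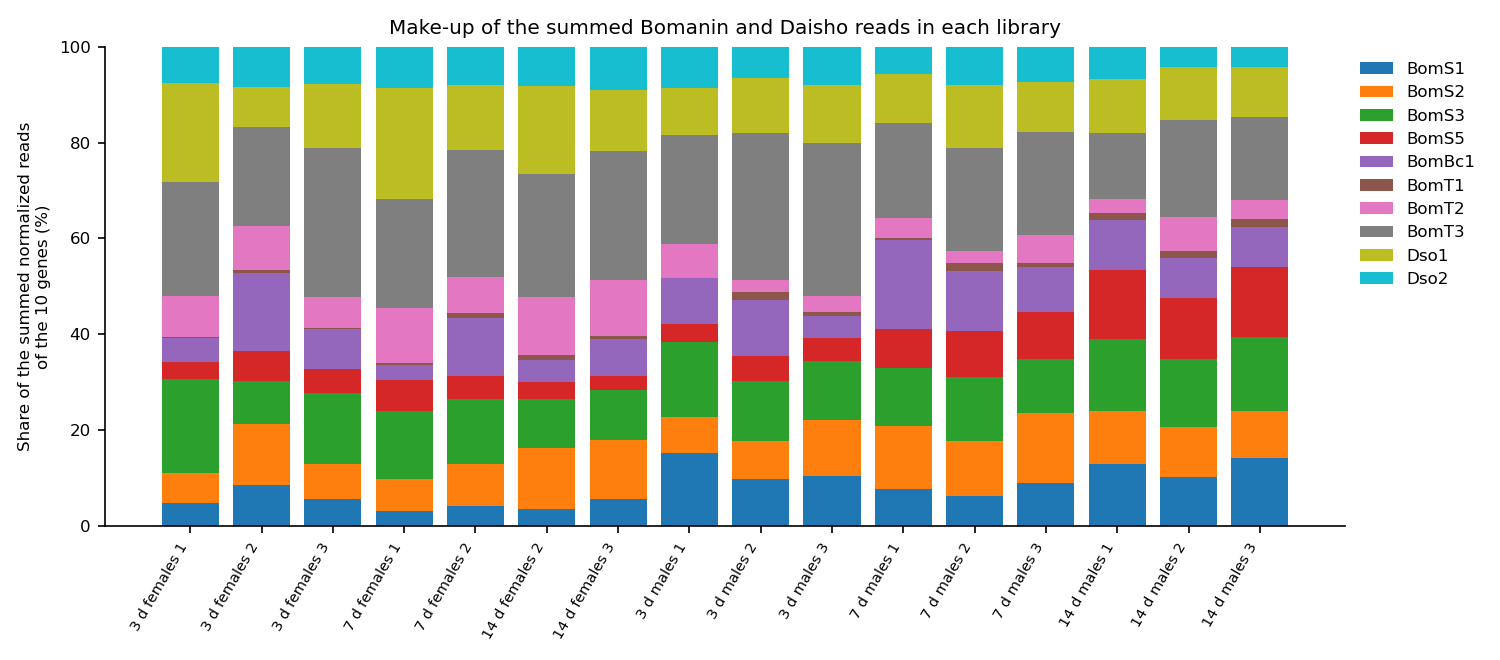
Share of each gene, in percent, in the summed normalized reads of the 10 genes (vertical axis) for each of the 16 libraries (horizontal axis, by age in days, sex and replicate). The red segment of BomS5 is 3.79% to 5.16% in the 3-day males, 8.1% to 9.92% in the 7-day males, 12.7% to 14.6% in the 14-day males and at most 6.50% in the females.

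Per kilobase of annotated exon, the scale on which levels of different genes can be set side by side, BomT3 (432.3 normalized reads per kb over the 16 libraries) and Dso2 (418.8) were the highest, followed by BomS5 (380.4), BomS2 (348.8), BomT2 (256.1), BomBc1 (253.4), BomS1 (249.0), Dso1 (222.0) and BomS3 (209.9). BomT1 was far lower, at 22.6. Except for BomS2 above BomT2 (14 of 16 libraries) and BomS3 above BomT1 (16 of 16), neighbors in this order did not keep it, the upper gene being above the lower in 5 to 10 of the 16 libraries. The order also differed between groups. In the 14-day males BomS5 (675.5 per kb) was above BomS1 (360.4), BomS2 (304.7), BomT3 (266.2) and Dso2 (254.2), and in the 3-day females Dso2 (900.5) and BomT3 (895.8) were highest. Over all tested genes with a length, the 9 abundant members lay between the 84.2 and 92.9 percentiles of level per kb and BomT1 at 26.5. Levels per kb depend on the annotated gene ends.

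Over the 16 libraries the Pearson correlation of log2 values was above 0 for each of the 45 pairs, with a median of 0.685, from 0.257 for BomT1 with BomT2 to 0.946 for BomT3 with Dso2, which lie on different chromosomes. With the group means taken out the median was 0.665, from 0.079 for BomT1 with BomT2 and 0.117 for BomBc1 with Dso1 to 0.944 for BomS3 with Dso1. These points share their libraries, so that a library high for all genes adds to every pair. The neighbors Dso1 and Dso2 had 0.923.

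Of 8402 genes with a mean of at least 50 outside the 10, the one whose pattern was most like their mean standardized log2 level was SPE, which encodes the Spätzle-processing enzyme that cuts the ligand of Toll, with r = 0.900 over the 16 libraries and 0.871 with group means removed. SPE had 171.6, 233.3 and 58.4 normalized reads in the 3-day females and 33.3, 74.8 and 53.6 in the 3-day males. Its groups overlapped there. The next were Tsp42Ed (0.897), a tetraspanin, CG18135 (0.889), ppl (0.873), a subunit of the glycine cleavage system, CG11841 (0.868), put (0.868), a type II receptor of activin and BMP signals, CG5773 (0.865) and CG44008 (0.865). These genes were chosen for their likeness over the same libraries, so no test is given for that likeness. BomBc3 ranked 16 with r = 0.836, BomBc2 ranked 32 with 0.811 and BomS6 ranked 66 with 0.780. The other listed recognition genes and proteases with a mean of at least 50 were less alike. They were psh (0.623), nec (0.488), Hayan (0.409), PGRP-SD (0.359), modSP (0.157), spz (0.150), GNBP1 (−0.022) and grass (−0.580). Some markers of other tissues were above psh. With such a mean, fat body markers ran from −0.138 (Obp99b) to 0.771 (fon) and digestive enzyme markers from 0.600 (betaTry) to 0.741 (Jon65Aiv). Glia markers ran from 0.182 (moody) to 0.364 (Eaat1), and from 0.282 (repo) to 0.752 (moody) with group means removed. The part of these tissues in the likeness was not tested.

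Upstream of the peptides, no listed gene of the Toll pathway was called between the sexes. None of 12 recognition genes and proteases and none of 8 genes of the receptor and its signaling was called between the sexes at 3, 7 or 14 days, and at 3 days their median log2 differences were 0.53 and 0.15. Unadjusted p values under 0.05 were found for 3 of the 12 at 3 days, 1 at 7 days and 0 at 14 days, and for 0 of the 8 at each age. SPE was among those at 3 days, higher in females by a log2 difference of 1.36 (SE 0.49, adjusted p = 0.103). The summed level of the 8 signaling genes was 3396 to 3994 normalized reads in the 3-day females and 3174 to 3427 in the 3-day males. With age in males, the protease gene psh (persephone) rose from 7 to 14 days (log2 difference 1.61, adjusted p = 0.088), as did the NF-kappaB genes Dif (0.60, adjusted p = 0.0969) and dl (1.15, adjusted p = 0.0787). These are 1 of 12 and 2 of 8 genes, where 14.7% of all genes tested were called higher. Each was lost with the replicate block and in the fit of these groups alone. They were also not called in edgeR, which called no gene at all in this comparison. Leaving out 1 library ended the call of psh for 7 libraries, of Dif for 9 and of dl for 4, the first and second of the 7-day and 14-day males being common to all 3. In females the protease gene Hayan rose from 3 to 14 days (1.25, adjusted p = 0.075), 1 of 12 where 17.1% of all genes tested were called higher. Leaving out replicate 1 or 3 of the 3-day females ended that call. Fits without a 14-day female library leave 1 in that group, so their calls are not given.

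Other Toll-linked effectors differed in the same direction as the peptides at 3 days in 3 of 5 genes tested: Mtk, the antifungal peptide Metchnikowin (log2 difference 2.92, SE 0.74, adjusted p = 0.0292), Bbd, the Bombardier protein that acts with the short Bomanins (1.67, SE 0.36, adjusted p = 0.0145), and IM33 (1.48, SE 0.36, adjusted p = 0.0256). The Mtk call was lost without replicate 1 or 2 of the 3-day females and the IM33 call without replicate 1 of the 3-day males. The other members of the list were Drs (2.59, adjusted p = 0.116) and BaraB (−1.75, adjusted p = 0.276). Bbd (2.04, adjusted p = 0.032) and IM33 were also called higher in females at 14 days, beside 0.273% of all genes tested. Leaving out replicate 2 or 3 of the 14-day males ended the call of Bbd at 14 days. Fits without a 14-day female library leave 1 in that group, so their calls are not given. The calls of the peptides and of these genes were not compared by a test. Of 12 Imd signaling genes, 1 was called at 3 days, Dredd, a caspase (−0.92, adjusted p = 0.0971), lower in females. That is near the background, as 1038 of 12448 genes tested were called lower. Of 10 antimicrobial peptide genes linked to the Imd pathway 1 was called, Def (Defensin, 2.17, adjusted p = 0.0788), higher in females. Of all genes tested 3.04% were called higher in females at 3 days. The median log2 difference of the 10 tested was 1.12 at 3 days, and the summed level was 1089 normalized reads in replicate 2 of the 3-day females and 71 to 131 in the other 5 libraries of that age, summed over the 12 with a row.

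Markers of other tissues moved with the 3-day result. At 3 days 8 of 13 fat body markers and 7 of 7 digestive enzyme markers were called higher in females, with median log2 differences of 3.04 and 5.43. None of 7 hemocyte markers tested was called (2 lower at an unadjusted p under 0.05). None of 8 neuron markers was called (1 higher at that p), though all 8 lay above 0 with a median of 0.65. Of 6 glia markers 1 was called higher (Eaat1, 1.09), 3 were higher at that p, and the median was 0.80. Within the 3-day females, the sums of the members, of the fat body markers and of the digestive enzyme markers were all highest in replicate 2 (3873, 56945 and 21976 normalized reads) and all lowest in replicate 3 (1251, 19764 and 7369). The neuron and glia markers had the same order, with 102406 and 24198 in replicate 2 and 66238 and 7296 in replicate 3. At 14 days the fat body markers summed to 117031 and 160685 in females and 2760 to 4947 in males, 6 of 13 called higher, and the digestive enzyme markers to 224 and 683 against 254 to 921, none called, while none of the 10 peptide genes was called. In females the fat body sum was 19764 to 56945 at 3 days and 117031 to 160685 at 14 days, whereas the sum of the peptide genes was 1251 to 3873 and 1550 to 1652. The part of these tissues in the differences was not tested.

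**Figure D5:**
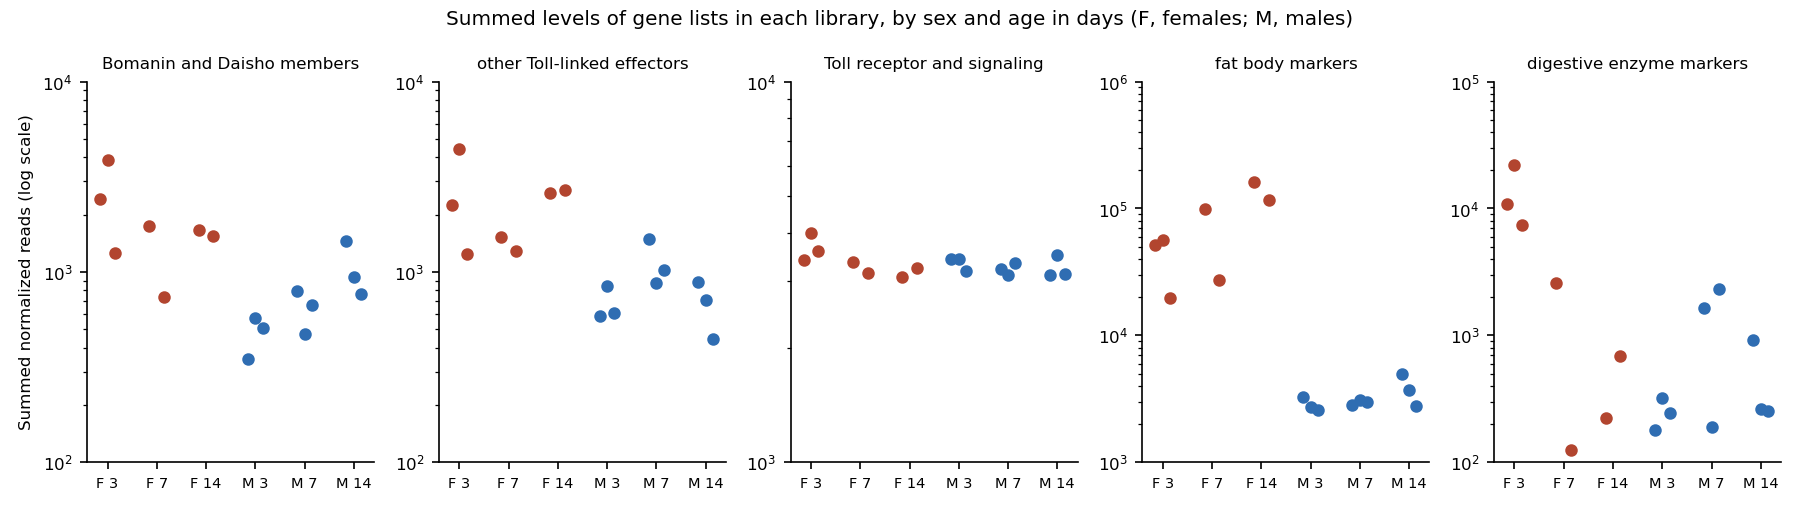
Summed normalized reads (vertical axes, log scale, each panel with its own range) of the 10 peptide genes and 4 gene lists in each library, by sex and age in days (red, females; blue, males). The 8 Toll receptor and signaling genes stay between 3077 and 3994 in all libraries, fat body markers lie at 19764 or above in every female library and at 4947 or below in every male library, and digestive enzyme markers are highest in the 3-day females.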

How the data were processed

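RNA of pooled brains was prepared with the TruSeq v2 kit, which keeps no strand, and sequenced. Per the labels, the authors used Trimmomatic (0.39), STAR (2.7.3a) and DESeq2 (2.10, in R 2.14.1). The deposited signal values are their normalized reads per gene. Whole reads were recovered for 100% of values (tolerance 1e-06). The 18 samples in the labels fall in 6 groups, and 16 had a column. Rows were matched to symbols and lengths in the BDGP6.54 annotation by annotation ID (13434 of 13439).

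The main test was limma (3.58.1, R 4.3.3) with a variance trend on log2(value + 1) over 12448 genes. Alternatives were edgeR (4.0.16) and DESeq2 (1.42.0) on the recovered reads, other pseudocounts (0.5, 5), testing every gene or those with means of 20 or more, quantile normalization, a replicate block, fits of the compared groups alone, other p thresholds, and the omission of each library or of the second 7-day female and first 14-day male libraries together. Omitting a library of the 7-day or 14-day females leaves 1 in that group, with the spread taken from the other groups. The procedure was tested on simulated data.

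Named genes were the 10 members, the other Bomanins, at most 4 called genes per list by smallest p, and the 8 genes most like the members. The members and lists were chosen with earlier results of these data known. IM18, BaraA1, BaraA2 and spheroide were not analysed here. Correlations are descriptions with no p. No sequences were used here.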

Additional observations from a re-analysis of the deposited data

How the results depend on the processing

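The calls at 3 days between the sexes were the firmest. Their number was 8, and 5 to 9 when 1 library was left out, with 9 in edgeR and DESeq2. Elsewhere counts were small and moved. At an unadjusted p of 0.05 they were 4 at 7 days and 5 at 14 days between the sexes, 4 for females from 3 to 7 days, 1 for females from 3 to 14 days, 1 for males from 3 to 7 days, 7 for males from 3 to 14 days, and 4 for the differences of the changes from 3 to 7 and from 3 to 14 days. At an adjusted p of 0.05 the 1 call in females from 3 to 7 days went to 0, the 2 in males from 7 to 14 days to 0 and the 2 in males from 3 to 14 days to 1. In DESeq2 these 3 counts were 2, 3 and 4, with 1 in females from 3 to 14 days and 2 each for the differences of the changes from 3 to 7 and 3 to 14 days. In edgeR they were 1, 0 and 1. Quantile normalization gave 0, 0 and 1, and 1 at 14 days between the sexes. The fit of only the groups compared gave 0, 0 and 1. A pseudocount of 5 gave 0 for females from 3 to 7 days, and one of 0.5 gave 1 for males from 7 to 14 days.

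With the second 7-day female library and the first 14-day male library both left out, 9 genes were called between the sexes at 3 days. There was 1 in females from 3 to 14 days, and 0 in males from 7 to 14 and from 3 to 14 days. The 7-day females then have a single library, so no counts are given for them. Leaving out 1 library gave 0 to 3 in males from 7 to 14 days and 0 to 5 from 3 to 14 days. The shares of all genes called in those fits are not given here. Ranges for comparisons with the 7-day or 14-day females are not given, since omitting a library there leaves 1 in the group. No alternative turned the sign of the 66 log2 differences that were recomputed. These were the differences of members at an unadjusted p under 0.05, and called differences of other Bomanins, listed Toll genes and the genes most like the members. They were chosen for lying away from 0, and omitting a library outside the groups compared leaves the limma estimate as it was. Their kept signs are therefore a weak test, and the signs of the other differences under the alternatives are not given here.

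Over all genes, quantile normalization moved the median log2 difference from 0.20 to −0.06 for males from 7 to 14 days and from 0.24 to −0.04 from 3 to 14 days. Calls over all genes for males from 7 to 14 days were 1825 higher and 814 lower, against 689 and 636 with quantile normalization, 0 and 0 in edgeR and 2595 and 899 in DESeq2. From 3 to 14 days they were 758 and 676, against 259 and 356, 18 and 58, and 2250 and 1055. For females from 3 to 14 days they were 2126 and 574, against 233 and 229, 1958 and 385, and 2273 and 884.

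The replicate numbers did not pair the libraries. Same-numbered libraries deviated from their group means with a median correlation of −0.046 over 35 pairs, against 0.0079 over 71 other pairs. With the replicate block the counts were 0 in females from 3 to 7 days, 0 in males from 7 to 14 days and 1 in males from 3 to 14 days. BomT1 had at most 18 reads in a library, and the part of depth in its lack of calls was not tested.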
